A study of Mus musculus with 48 samples.

Results

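Among 48 mouse fetal liver cells labelled as early erythroid progenitors (BFU-E), 19 with a very high level of Mpo were set against 19 with a low level. Mpo encodes myeloperoxidase, the heme enzyme of neutrophil primary granules. The members were chosen by their measured values. Reads per gene were scaled to a total of 1000000 in each cell (CPM), and 2 cells with 1000 CPM or more of the macrophage gene C1qb were left out. Of the other 46 cells, 19 had 1000 CPM or more of Mpo (very high), 19 had under 100 CPM (low) and 8 lay between (intermediate).

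All cells came from mouse fetal liver at embryonic day 14.5. Per the labels' protocols, they were depleted of cells with lineage antigens, among them CD34, CD16/CD32 and CD41, selected for c-Kit and sorted for the lowest CD71, and each was amplified alone in a microfluidic chamber. The labels give no strain, treatment, animal, litter or chip for any cell, and the columns of the count table carry run codes that match no sample title. The 46 cells therefore stand as 1 sample: differences between the sets have no replicate check, no p-value is given, and intervals cover counting error only.

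Myeloperoxidase is made at the promyelocyte stage, together with the serine proteases that are packed into the same granules. Fetal liver at midgestation holds both erythroid and granulocyte-monocyte precursors, which descend from shared progenitors. In the erythroid branch Gata1 and Klf1 switch on red cell genes, and in the granulocyte-monocyte branch the factors PU.1 (Spi1), C/EBP-alpha (Cebpa) and Gfi1 take that place.

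Mpo ran from 1027 to 42679 CPM in the very high set, with a median of 7331 CPM, and from 1.25 to 89.4 CPM in the low set, with a median of 17.2 CPM. The intermediate cells held 102 to 586 CPM. These values define the sets and are a description. Near the limits, the lowest very high cells had 1027 and 1213 CPM and the highest intermediate cells 586 and 479 CPM, while the lowest intermediate cells had 102 and 114 CPM and the highest low cells 89.4 and 83.1 CPM. In 7 cells Mpo exceeded 10000 CPM, and in the highest cell it was 4.27% of all counts.

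**Figure D1:**
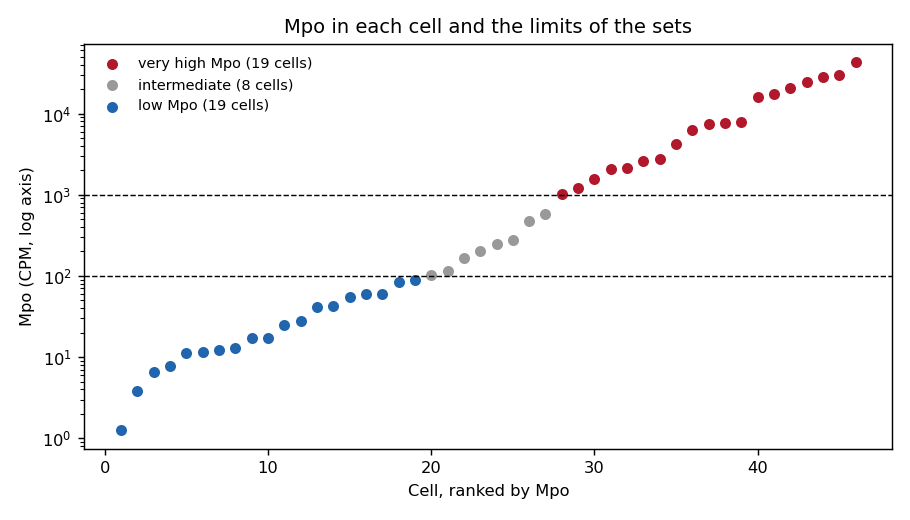
Mpo in each of the 46 cells (CPM, log axis), ranked from lowest to highest, 1 point per cell; dashed lines mark the limits of 100 and 1000 CPM. The 19 low cells lie between 1.25 and 89.4 CPM, the 8 intermediate cells between 102 and 586 CPM and the 19 very high cells between 1027 and 42679 CPM.

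Depth was similar in both sets. Total counts had a median of 1733417 in the very high set (976480 to 3061777) and 1948876 in the low set (246007 to 3211186), and the intermediate cells ran from 507732 to 3149848. The median number of genes with a count was 6666 in the very high and 6771 in the low set. Reads of granule and erythroid genes were also found in cells of the other set, mostly under 10 CPM. Elane had a count in 17 of 19 low cells but reached 10 CPM in 1. Gata1 had a count in 15 of 19 very high cells but reached 10 CPM in 3. The 2 cells left out for C1qb held 4.30 and 22.4 CPM of Mpo. Presence is therefore counted below at 10 CPM or more, and where the reads under that limit come from was not tested.

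Across 9607 genes with a count in at least 10 of the 46 cells, Mpo not counted, a gene was called higher or lower in the very high set when the difference in mean log2(CPM + 1) was at least 2. By this limit 345 genes were higher (3.59%) and 244 lower (2.54%), and the median difference over all genes was −0.04. In 117 of the higher genes (1.22% of all) and 53 of the lower (0.552%), the interquartile ranges of the 2 sets also lay apart. The 15 genes of largest difference in each direction come from these. A gene that passes the filter through only 1 set is likely to differ, so counts over lists describe only the members that passed. The percentages given for lists below are shares of these members. They stand beside 3.59% higher and 2.54% lower over all genes.

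The genes of largest difference above were Plac8, Serpinb1a, Emb, BC035044, Prtn3, Cd53, Lcp1, Rab31, Tyrobp, Fcgr3, Cd34, Ctsg, Idh1, Anxa1 and Ptprc, with differences from 8.11 down to 5.17 in log2(CPM + 1). Plac8, a small cysteine-rich protein gene of myeloid cells (mm10 chromosome 5, 100553725 to 100572245), had 85.0 to 2233 CPM in the very high set, with a median of 638 CPM. In the low set it had 0 to 43.5 CPM, with a median of 0.849 CPM, so that its sets did not overlap. On the log2(CPM + 1) scale its mean was 9.15 ± 1.38 in the very high and 1.05 ± 1.27 in the low set (SD, n = 19 cells each).

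The genes of largest difference below were Gm15915, Tgfbr3, Car2, Gata1, Blvrb, Car1, Mfsd2b, Slc14a1, Hk1, Hif3a, Gfi1b, Smim1, Klf1, Ermap and Ndrg3, from −7.28 to −4.50. Many belong to the red cell: Car1 and Car2 are carbonic anhydrases, Blvrb a biliverdin reductase, Slc14a1 the urea transporter of the Kidd blood group, and Smim1 and Ermap carry the Vel and Scianna blood groups. Gm15915 is annotated as an antisense RNA that overlaps Ntn4 on the other strand. The library chemistry marks no strand, so reads of such a pair cannot be told apart. Ntn4 itself did not pass the filter.

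**Figure D2:**
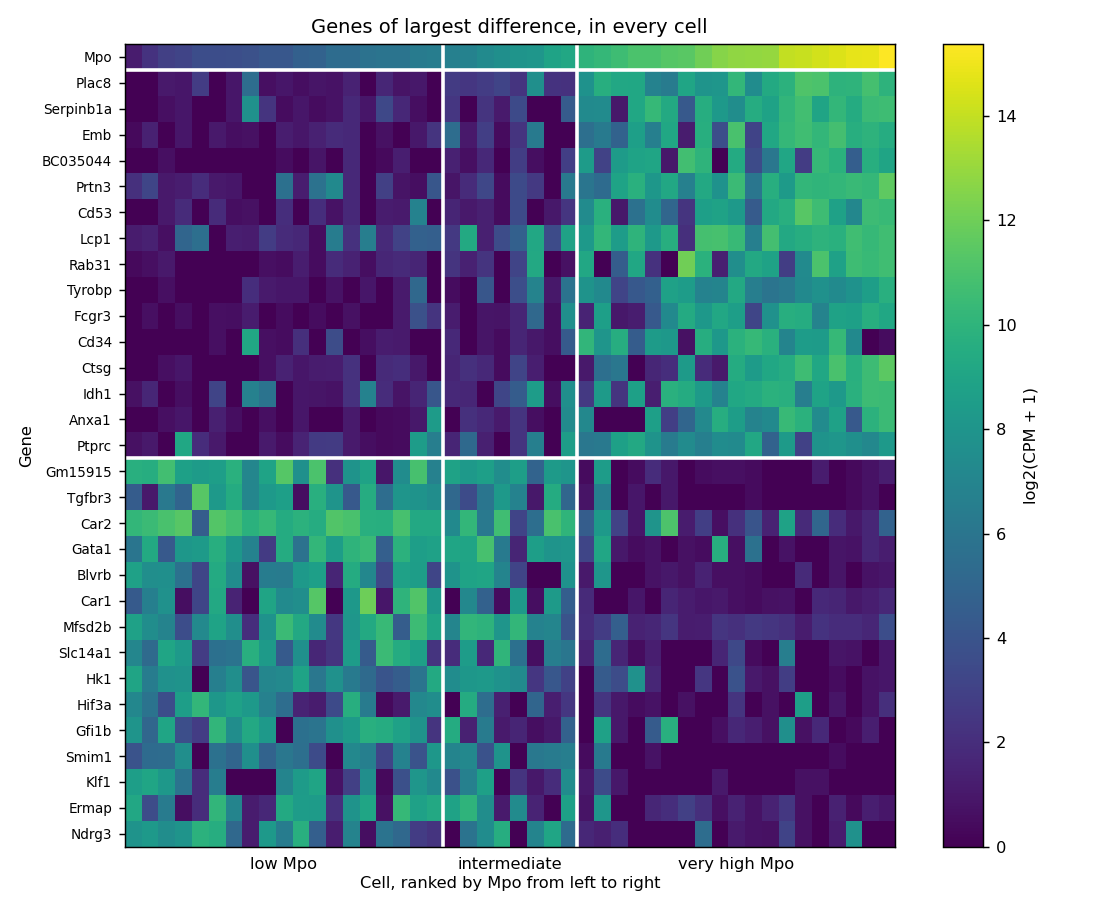
log2(CPM + 1) of Mpo and of the 15 genes of largest difference in each direction (rows) in the 46 cells (columns, ranked by Mpo), with white lines between sets. Plac8 separates the very high from the low cells completely, and the low and intermediate columns look alike for Gata1, which reached 10 CPM in 18 of 19 and 7 of 8 cells against 3 of 19 very high cells.

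Most of the compared genes of the neutrophil granule list were higher in the very high set. The list holds proteases of the Mpo granule and also other genes, such as Plac8, Serpinb1a, Ms4a3 and Igsf6. Of 25 list genes, Mpo among them, 16 others passed the filter. Of those, 13 were higher (81.2%, against 3.59% of all genes) and 0 lower, with a median difference of 4.26. Prtn3, which encodes proteinase 3 (chromosome 10, 79874476 to 79883174), had 39.9 to 2988 CPM in the very high set with a median of 613 CPM, and 0 to 160 CPM in the low set with a median of 1.38 CPM. It reached 10 CPM in 19 of 19 very high and 4 of 19 low cells, 100% (95% Clopper-Pearson interval 82.4 to 100%) and 21.1% (6.05 to 45.6%). Summed over the cells of a set, Prtn3 made 808 CPM in the very high set (exact Poisson interval 799 to 818) and 14.8 CPM in the low set (13.6 to 16.1).

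Ctsg, which encodes cathepsin G (chromosome 14, 56099881 to 56102574), had 0 to 2868 CPM in the very high set, with a median of 347 CPM, and at most 3.59 CPM in the low set. It reached 10 CPM in 13 of 19 very high cells and in no low cell (Clopper-Pearson interval 0 to 17.6%). Elane, which encodes neutrophil elastase (chromosome 10, 79886247 to 79888215), had 0 to 8725 CPM in the very high set, against at most 19.6 CPM in the low set. It reached 10 CPM in 10 very high cells, so 9 cells with very high Mpo held little or no Elane. Serpinb1a, an inhibitor of these proteases, was also higher, with a median of 653 CPM in the very high set (1.01 to 1688) and 0.674 CPM in the low set (0 to 215). It was not confined to cells with Elane: 1 very high cell held 743 CPM of Serpinb1a and 3.52 CPM of Elane.

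Other genes of the list were carried by fewer cells. Ms4a3 reached 10 CPM in 10 very high cells and in no low cell, Igsf6 in 11 and 2, Hp (haptoglobin) in 7 and 0, and Prss57, another serine protease, in 6 and 0. Lyz2, a lysozyme gene, had a median of 243 CPM in the very high and 1.79 CPM in the low set, but its highest cell, at 1301 CPM, was a low Mpo cell, the one with 402 CPM of C1qb; the next low cell had 265 CPM. Lyz1 and Lyz2 are near-identical copies, and how the counting divided their reads is not given in the sources used here. Camp, Ltf, Ngp, Lcn2 and S100a9, genes of later neutrophil granules and cytosol, did not pass the filter. S100a8 and Fcnb of the same list passed it, with differences above 0 that stayed under the limit of 2.

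The promoters of Mpo and of the 3 proteases beside it are shown because these genes differed most among the granule proteases; not every very high cell held all 4. The windows are 250 bases before to 50 bases after the RefSeq start (GRCm38.p6, 5′ to 3′ on the gene's strand), with each GAGGAA, or TTCCTC on the other strand, in capitals; these letters form the core that PU.1 binds. Mpo lies at chr11:87793534-87793833 (plus), Prtn3 at chr10:79879417-79879716 (plus), Elane at chr10:79886062-79886361 (plus) and Ctsg at chr14:56102525-56102824 (minus). The Prtn3 window lies inside the gene span given above, since the sources of spans and of promoters place its start differently.
Mpo: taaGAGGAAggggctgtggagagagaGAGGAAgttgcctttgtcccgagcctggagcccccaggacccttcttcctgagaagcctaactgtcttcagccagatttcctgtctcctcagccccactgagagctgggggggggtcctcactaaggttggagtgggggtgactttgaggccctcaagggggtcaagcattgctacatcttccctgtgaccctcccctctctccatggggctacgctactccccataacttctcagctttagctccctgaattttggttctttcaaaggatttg
Prtn3: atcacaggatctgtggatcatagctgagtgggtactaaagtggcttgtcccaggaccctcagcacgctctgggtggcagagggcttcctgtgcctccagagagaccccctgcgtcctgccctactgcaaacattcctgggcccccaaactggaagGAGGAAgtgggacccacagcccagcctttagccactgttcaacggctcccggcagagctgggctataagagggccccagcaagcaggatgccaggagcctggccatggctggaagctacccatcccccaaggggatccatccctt
Elane: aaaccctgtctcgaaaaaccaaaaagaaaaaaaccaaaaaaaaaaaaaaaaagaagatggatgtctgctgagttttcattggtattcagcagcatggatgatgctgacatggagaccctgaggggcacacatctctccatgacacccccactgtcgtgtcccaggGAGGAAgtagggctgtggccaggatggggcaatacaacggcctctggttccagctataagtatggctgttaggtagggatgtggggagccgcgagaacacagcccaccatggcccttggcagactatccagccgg
Ctsg: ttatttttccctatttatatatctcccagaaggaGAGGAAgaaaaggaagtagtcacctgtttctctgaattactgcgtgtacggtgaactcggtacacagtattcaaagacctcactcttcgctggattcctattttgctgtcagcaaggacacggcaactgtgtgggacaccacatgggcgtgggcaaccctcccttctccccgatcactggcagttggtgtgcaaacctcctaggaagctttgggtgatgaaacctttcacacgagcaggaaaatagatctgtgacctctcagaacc

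The letters occurred 2 times in the Mpo window and 1 time in each of the others, in the orientation of the gene. They are common: 28.3% of 32851 promoter windows of this length hold them on either strand. The share was 34.1% of 361 windows of the genes called higher and 25.3% of 245 windows of those called lower. For genes compared and called neither it was 26.5% of 8598 windows. The letters TTGCNNAA, a C/EBP-like sequence, are in 10.8% of all windows and in none of these 4. They are in 9.42% of the windows of the higher genes and in 8.19% of those called neither. The motifs were chosen after promoters had been seen, and a match describes the sequence only.

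Of 30 myeloid receptor and surface genes, 28 passed the filter, with 15 higher (53.6%), 0 lower and a median difference of 3.09. Cd34 and Fcgr3 encode antigens against which the cells had been depleted. Cd34 reached 10 CPM in 16 of 19 very high, 1 of 8 intermediate and 2 of 19 low cells, with a median of 343 CPM in the very high set. Fcgr3, the transcript of CD16, did so in 15, 2 and 1 cells, and Ptprc, which encodes CD45, in 18, 3 and 3. Itga2b, which encodes CD41, went the other way, with no very high, 2 intermediate and 4 low cells at 10 CPM. A transcript does not measure the surface protein.

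Among receptors for myeloid growth factors, Csf3r (for G-CSF) reached 10 CPM in 11 very high and 1 low cells and Csf2rb, the shared beta chain of the GM-CSF and IL-3 receptors, in 12 and 2. Csf1r, the M-CSF receptor, did so in 5 and 1, and its highest cell, at 222 CPM, was the low Mpo cell that also held 402 CPM of C1qb and 564 CPM of Hmox1, both macrophage markers. Flt3 had too few cells to pass the filter; it reached 10 CPM in 7 very high cells and in no other. The adaptor Tyrobp had 8.08 to 838 CPM in the very high set, with a median of 158 CPM, and at most 35.4 CPM in the low set. Clec12a, a lectin receptor of myeloid progenitors, reached 10 CPM in 11 very high cells and in no low cell.

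Of 26 actin cytoskeleton genes typical of leukocytes, 8 were higher (30.8%) and 0 lower, with a median difference of 1.51. Lcp1, which bundles actin, had 3.24 to 1895 CPM in the very high set, with a median of 974 CPM, and 0 to 94.0 CPM in the low set, with a median of 2.65 CPM. In 18 of 19 very high cells it exceeded every low cell. Coro1a (coronin 1A) had medians of 380 and 12.8 CPM. Subunits of the NADPH oxidase, which makes superoxide in phagocytes, were also higher: Ncf4 and Ncf1 differed by 3.20 and 2.18. Across all 23 genes of the oxidase and antioxidant list 5 were higher (21.7%), 2 lower (8.70%) and the median was −0.02.

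Of 21 myeloid transcription factors 19 passed the filter, with a median of 0.77. Runx1, Irf8 and Tfec were higher, 3 genes or 15.8%, and Nfe2l2 was lower, 1 gene or 5.26%. Over all genes compared the shares were 3.59% and 2.54%. Runx1, needed to form blood stem cells, had a median of 302 CPM in the very high and 4.06 CPM in the low set, and reached 10 CPM in 17 and 8 cells. Irf8, a factor of monocyte and dendritic cells, held 10 CPM or more in 7 very high cells and in no other cell. Cebpa had counts in no low cell, reached 119 CPM in the very high set and passed 10 CPM in 4 of its cells, and Gfi1 passed it in 3, all with over 10000 CPM of Mpo. Spi1 had a median of 2.48 CPM in the very high set and reached 10 CPM in 7 very high, 2 intermediate and 1 low cells. Its difference of 1.63 did not reach the limit.

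Of 25 erythroid regulators 24 passed the filter, with 10 lower (41.7%), 0 higher and a median difference of −1.68. In place of 10, 6 were lower with the 2 cells of high C1qb kept in the low set. With Mpo limits of 500 and 200 CPM 6 were lower, and with a pseudocount of 10, 4. Gata1 (chromosome X, 7959260 to 7978071), the master regulator of red cell genes, had 0 to 797 CPM in the very high set, with a median of 0.676 CPM, and 5.11 to 1396 CPM in the low set, with a median of 377 CPM. It reached 10 CPM in 15.8% of very high cells (Clopper-Pearson interval 3.38 to 39.6%) and 94.7% of low cells (74.0 to 99.9%). The sets overlapped through 4 very high cells, 1 with 8.47 CPM and 3 with 10 CPM or more, which are described below. Klf1, an activator of globin genes, had at most 10.5 CPM in the very high set and a median of 92.5 CPM in the low set, where 12 of 19 cells reached 10 CPM. Epor, the erythropoietin receptor, stayed at or below 0.717 CPM in every very high cell, and 6 low and 4 intermediate cells reached 10 CPM.

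Several regulators did not reach the limit. Myb, which sustains progenitors of both branches, had medians of 447 and 315 CPM (difference 0.44), and Kit, the receptor used for the sort, 105 and 229 CPM (−0.25). Gata2 had medians of 26.3 and 124 CPM (−1.82). The other regulators called lower were Gfi1b, Ldb1, Tal1, Mllt3, Stat5a and Zfpm1, with Gfi1b, a repressor of erythroid and megakaryocyte cells, at medians of 0.634 and 238 CPM.

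Tgfbr3, the type III TGF-beta receptor (chromosome 5, 107106570 to 107289629), had no count in most very high cells: its median was 0, its highest cell 99.8 CPM, and 1 of 19 cells reached 10 CPM. In the low set it ran from 0.461 to 2686 CPM, with a median of 237 CPM, and 17 of 19 cells reached 10 CPM. Summed over cells it made 5.51 CPM in the very high set (exact Poisson interval 4.77 to 6.33) and 275 CPM in the low set (270 to 281). Of 31 genes of the TGF-beta pathway, Tgfbr3 among them, 16 passed the filter, with a median of 0.56. Ltbp1, which binds latent TGF-beta in the matrix, was lower as well (12.5% together with Tgfbr3), and Smad5 was higher (6.25%). Ltbp1 was at 0 in all 19 very high cells and reached 10 CPM in 8 low cells. The signalling receptors had the opposite order to Tgfbr3: Tgfbr1 reached 10 CPM in 7 very high and 0 low cells and Tgfbr2 in 4 and 0, with differences of 1.92 and 1.54, both under the limit.

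Of 36 genes of red cell maturation 24 passed the filter, all 24 with a difference below 0, and 10 were called lower (41.7%), with a median of −1.92. Car2 (chromosome 3, 14886273 to 14900770) had 0.519 to 2200 CPM in the very high set, with a median of 6.30 CPM, and 22.4 to 2674 CPM in the low set, with a median of 1174 CPM. Its sets overlapped, since 8 of the 19 very high cells reached 10 CPM and the highest had 2200 CPM. Car1, its neighbour on the chromosome, never exceeded 2.58 CPM in the very high set, while 13 of 19 low cells reached 10 CPM and the highest had 4044 CPM. Outside the list, Mfsd2b, the sphingosine-1-phosphate exporter of red cells, had at most 24.3 CPM in the very high set and a median of 227 CPM in the low set. The globin, Slc4a1 and Sptb genes of the list did not pass the filter.

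The promoters of Klf1 and Gfi1b, which were lower, are shown with the GATA letters GATAAG, or CTTATC on the other strand, in capitals, in the same kind of window (GRCm38.p6). Klf1 lies at chr8:84901732-84902031 (plus) and Gfi1b at chr2:28621933-28622232 (minus).
Klf1: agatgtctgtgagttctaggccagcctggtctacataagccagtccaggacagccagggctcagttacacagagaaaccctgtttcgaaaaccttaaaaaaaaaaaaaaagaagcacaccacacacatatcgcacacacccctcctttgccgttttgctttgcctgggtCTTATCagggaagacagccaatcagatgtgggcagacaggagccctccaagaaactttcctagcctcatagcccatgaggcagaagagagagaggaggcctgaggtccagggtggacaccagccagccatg
Gfi1b: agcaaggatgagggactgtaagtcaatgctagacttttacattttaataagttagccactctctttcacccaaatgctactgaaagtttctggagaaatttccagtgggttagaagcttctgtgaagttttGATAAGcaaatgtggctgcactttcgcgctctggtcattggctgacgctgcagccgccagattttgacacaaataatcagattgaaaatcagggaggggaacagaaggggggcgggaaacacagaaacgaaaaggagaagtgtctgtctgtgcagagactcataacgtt

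Each holds the letters 1 time. They are in 7.44% of all windows, in 8.16% of the windows of the genes called lower and in 5.54% of those called higher. Windows of genes compared and called neither held them in 5.04%.

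Heme enters both programs, since myeloperoxidase and hemoglobin both carry it, and its enzymes were split. Alas1, the housekeeping form of the enzyme that starts heme synthesis, was higher by 4.26, with medians of 151 CPM in the very high and 1.27 CPM in the low set and 10 CPM or more in 16 and 5 cells. Of the 21 heme and iron genes that passed the filter it was the 1 gene higher (4.76%), against 7 lower (33.3%) and a median of −1.09. The lower ones were the ferrireductase Steap3, the iron transporter Slc11a2, the heme enzymes Cpox, Fech and Alad, the mitochondrial carrier Slc25a38 and the transferrin receptor Tfr2. Alas2, the other form of the enzyme that Alas1 encodes, did not pass the filter and was not compared. Alad had medians of 11.3 and 153 CPM, and Fech, which inserts the iron, 0.352 and 56.2 CPM.

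Calreticulin, the chaperone that helps fold newly made myeloperoxidase, had medians of 802 CPM (Calr, very high set) and 289 CPM (low set), a difference of 1.86 that stayed under the limit. Among 34 genes of protein folding in the endoplasmic reticulum 33 passed the filter, with 5 higher (15.2%), 0 lower and a median of 0.64. Those higher were P4hb, Dnajc3, Xbp1, Pdia4 and Ero1l. P4hb, a protein disulfide isomerase, had 38.4 to 2459 CPM in the very high set and 0 to 1128 CPM in the low set.

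**Figure D3:**
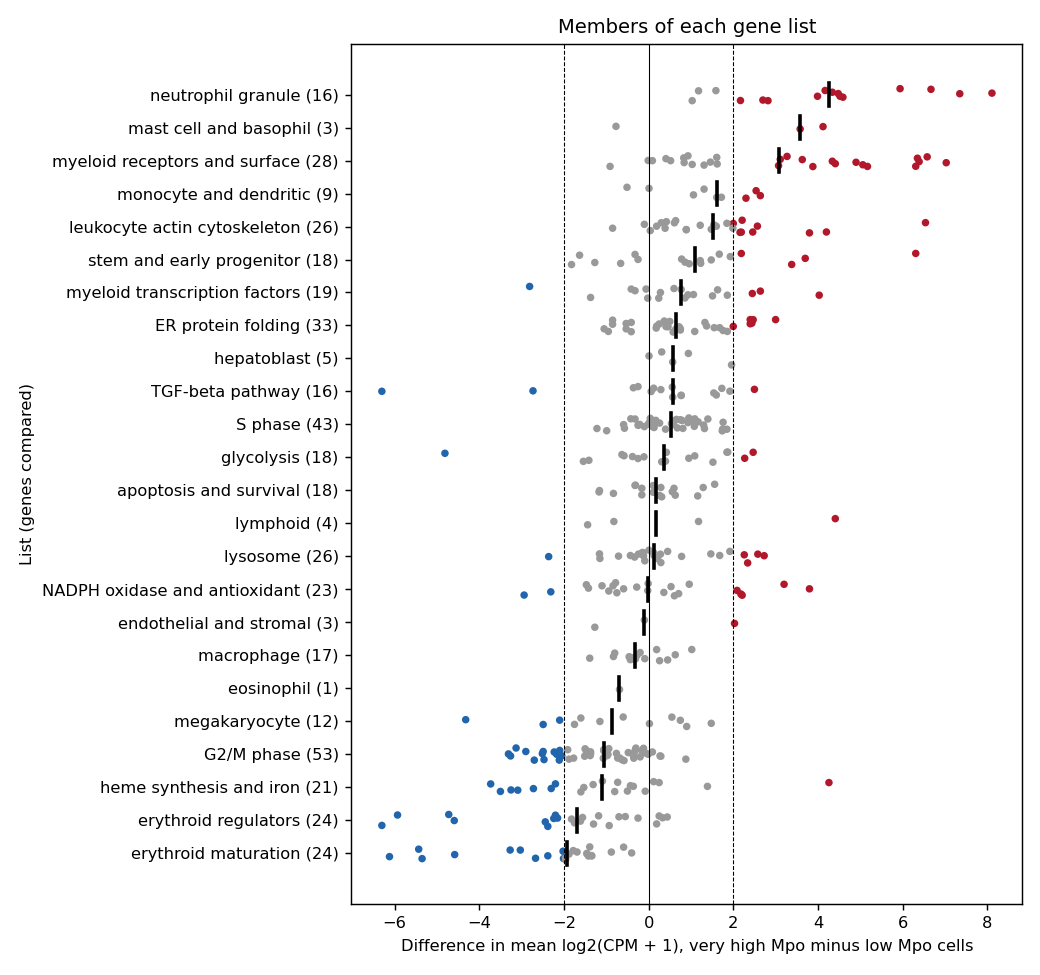
Difference in mean log2(CPM + 1), very high minus low Mpo cells, of each list gene that passed the filter (points; red 2 or more, blue −2 or less, grey between), with the list's median as a bar. Genes of the neutrophil granule list centre on 4.26, myeloid receptor and surface genes on 3.09, erythroid regulators on −1.68 and erythroid maturation genes on −1.92. The median over all 9607 genes was −0.04.

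None of the 43 S phase genes passed the limit (median 0.54), while 13 of 53 G2/M genes were lower (24.5%) and 0 higher (median −1.06). Among those lower were Aurkb, a mitotic kinase, with medians of 1.01 and 195 CPM, Ccnb1 (cyclin B1) with 115 and 483 CPM, and Hmmr with 11.4 and 85.4 CPM. The per-cell G2/M score, the mean log2(CPM + 1) over the 53 genes, ran from 2.70 to 7.45 in the very high set and from 4.53 to 7.16 in the low set. In 12 of 19 very high cells it was below every low cell, and 1 very high cell was above every low cell. In glycolysis, 18 genes that passed the filter, the hexokinases were opposed: Hk1 had medians of 0.718 and 99.9 CPM in the very high and low sets (−4.81), and Hk2 525 and 21.7 CPM (2.27). Pfkp was higher, and the list's median was 0.36.

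Markers of other lineages were present in some very high cells. Cpa3, a protease of mast cells and their progenitors, reached 10 CPM in 10 very high, 1 intermediate and 1 low cells, up to 2209 CPM, and Hdc, which makes histamine, in 13, 2 and 2. Only 3 of the 13 mast cell and basophil genes of the list passed the filter. Il1rl1, compared beside Cpa3 and Hdc, went the other way. It differed by −0.77, with a count in 10 very high and 9 low cells. Gzmb was listed at 0 in all 46 cells. Of the monocyte and dendritic list, 9 of 16 genes passed the filter and Irf8, F13a1 and Ly6c2 were higher (33.3%). F13a1 and Ly6c2 reached 10 CPM in 7 and 5 very high cells, 5 of the F13a1 cells also holding Irf8 at that level, and Cd74 was listed at 0 in every cell.

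Among stem and early progenitor genes, 18 of 28 passed the filter, with Cd34, Ly6e, Cd27 and Hlf higher (22.2%), 0 lower and a median of 1.09. Of the 12 megakaryocyte genes that passed (20 in the list), F2r, Gp9 and F2rl2 were lower and the median was −0.87. Of 4 lymphoid genes that passed (20 in the list), Cd79b was higher, with 10 very high and no low cells at 10 CPM. In the macrophage list 0 of 17 passed the limit in either direction; its summed level ran from 117 to 3145 CPM in the very high and 203 to 11771 CPM in the low set, where 1 cell held 402 CPM of C1qb. The hepatoblast (5 of 13 genes compared), endothelial and stromal (3 of 12) and eosinophil (1 of 9) lists had 0, 1 (Vim, higher) and 0 genes past the limit, with medians of 0.57, −0.10 and −0.71. Lysosome genes had 4 higher (15.4%), 1 lower (3.85%) and a median of 0.12 over 26, and apoptosis genes 0 of 18 past the limit and a median of 0.19.

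The 19 very high cells were not alike. In the 7 cells with over 10000 CPM of Mpo, Elane ran from 728 to 8725 CPM, Ctsg from 569 to 2868 CPM, Ms4a3 from 217 to 2209 CPM and Igsf6 from 482 to 2975 CPM. In the other 12, Elane ran from 0 to 1014 CPM with a median of 3.57 CPM and reached 10 CPM in 3, and Ms4a3 had a median of 1.95 CPM. Prtn3 was already at 10 CPM or more in all 12, from 39.9 to 1431 CPM. The granule score without Mpo, the mean log2(CPM + 1) over the 16 genes, was 6.64 to 10.25 in the 7 cells and 3.33 to 6.41 in the 12. The limit of 10000 CPM was chosen after the values were seen.

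Across the 19 cells, Mpo varied with several granule genes, given as a description since the cells share 1 preparation and the values 1 total per cell. Of 7270 genes with a count in at least 9 of the 19 cells, the highest Spearman correlations with Mpo were those of Elane (rho 0.88, Pearson r 0.91), Ctsg (0.85, 0.77), Ankrd13c (0.83, 0.79), B4galnt1 (0.79, 0.79) and Mgst1 (0.79, 0.76). The lowest were those of Tmsb10 (−0.81, −0.80), Fabp5 (−0.76, −0.74), Gimap9 (−0.75, −0.75), Pdap1 (−0.75, −0.78) and Rnf220 (−0.74, −0.75). The median over all 7270 genes was −0.02, and these are the extremes of that range. Elane and Ctsg are proteases of the Mpo granule, Mgst1 a microsomal glutathione transferase and Tmsb10 an actin-binding thymosin. Mpo had a rho of 0.11 with total counts and −0.09 with the number of genes detected.

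**Figure D4:**
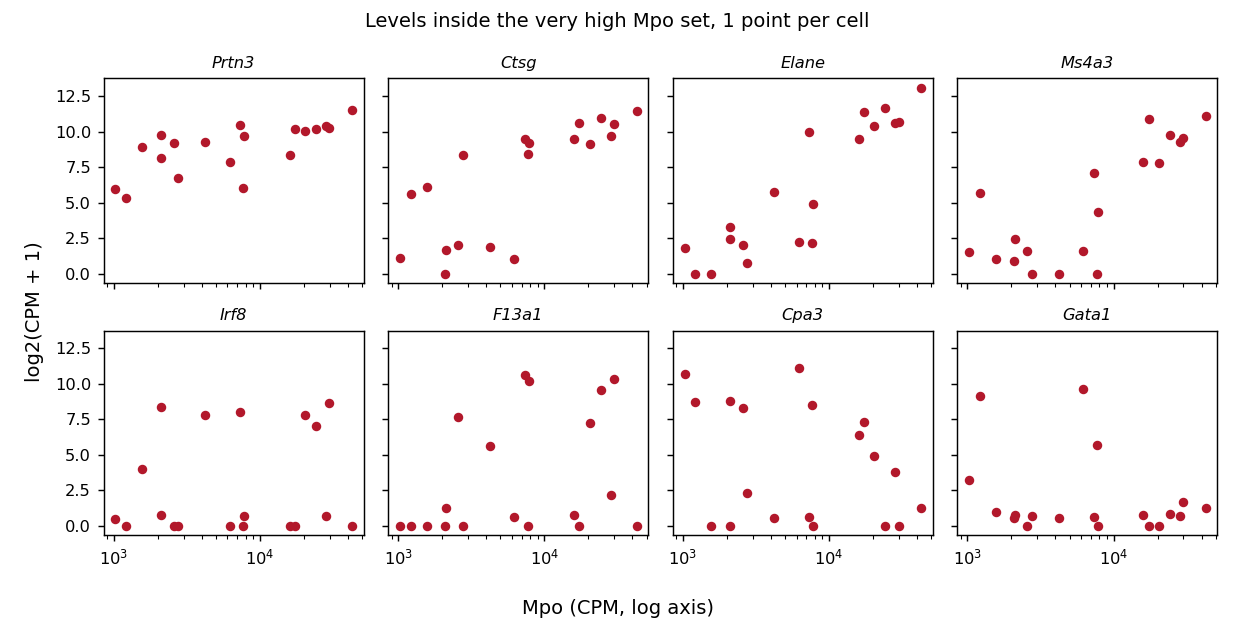
log2(CPM + 1) of 8 genes against Mpo (CPM, log axis) in the 19 very high cells, 1 point per cell. Elane and Ms4a3 are high in all 7 cells above 10000 CPM of Mpo and under 10 CPM in most cells below it, Prtn3 is present in all 19 cells, and Gata1 exceeds 10 CPM in 3 cells.

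The mast cell genes had no common order with Mpo. Cpa3 reached 10 CPM in 4 of the 7 cells above 10000 CPM of Mpo and in 6 of the 12 below, but its level was at most 160 CPM in the 7 and up to 2209 CPM in the 12. Hdc reached 10 CPM in all 7 and in 6 of the 12, with medians of 348 and 7.87 CPM. At 10 CPM, Elane and Cpa3 were together in 4 very high cells, Elane alone in 6, Cpa3 alone in 6 and neither in 3. Irf8 was at 10 CPM in 3 of the 7 and 4 of the 12. Elane and Irf8 were together in 5 cells, Elane alone in 5, Irf8 alone in 2 and neither in 7.

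Gata1 and Elane did not meet at 10 CPM in any very high cell: 3 held Gata1 alone, 10 Elane alone and 6 neither. With 3 Gata1 cells this does not show that the genes exclude each other, and they met in 1 intermediate and 1 low cell. Other granule proteases did meet Gata1 in the very high set: Prtn3 was at 10 CPM in all 3 Gata1 cells and Ctsg in 2. The 3 cells with Gata1 differed from each other. The cell with 1213 CPM of Mpo held 556 CPM of Gata1 with 314 CPM of Car2, 99.8 CPM of Tgfbr3 and 447 CPM of Gfi1b, together with 805 CPM of Plac8 and 408 CPM of Fcgr3. Its erythroid maturation score was 4.59, against 0.94 to 4.59 over the whole very high set and 2.01 to 6.21 in the low set. The cell with 6223 CPM of Mpo held 797 CPM of Gata1 and 2209 CPM of Cpa3 but 0.519 CPM of Car2, 1.04 CPM of Klf1 and no Tgfbr3. The cell with 7664 CPM of Mpo held 52.0 CPM of Gata1, 1269 CPM of Cd34, 369 CPM of Cpa3 and 14.8 CPM of Car2. All 3 held Cpa3. Without these 3 cells 379 genes were higher and 308 lower.

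**Figure D5:**
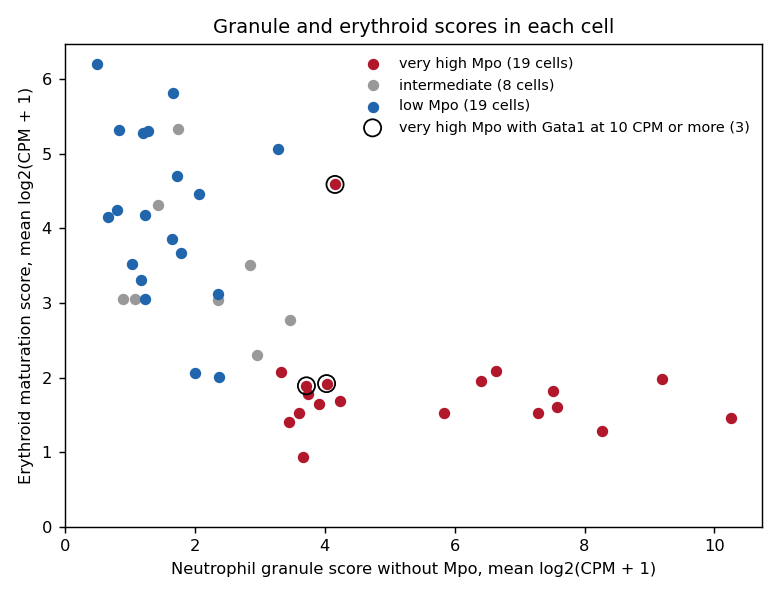
Erythroid maturation score (24 genes) against the granule score without Mpo (16 genes), each the mean log2(CPM + 1), in the 46 cells; rings mark the 3 very high cells with Gata1 at 10 CPM or more. All 19 very high cells have a granule score above every low cell, which the filter on genes favours, and 16 of them an erythroid score below every low cell.

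The granule score of every very high cell (3.33 to 10.25) was above that of every low cell (0.49 to 3.28). Mpo is not part of this score, but its 16 genes are those that passed the filter, some mainly through the very high set (Prss57 had a count in 8 very high, 2 intermediate and 1 low cells), so the separation is a description and no independent support. The erythroid maturation score was below that of every low cell in 16 of 19 very high cells, and the erythroid regulator score in 10 of 19.

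The 8 intermediate cells had most of the erythroid genes of the low set and few of the granule genes. Their erythroid regulator score ran from 3.75 to 5.26, inside the range of the low set (2.94 to 6.06), and their erythroid maturation score from 2.31 to 5.34. Gata1 reached 10 CPM in 7 of the 8, Tgfbr3 in 7, and Mfsd2b in 8, but Gfi1b in 3, with a median of 1.81 CPM. Their granule score ran from 0.90 to 3.47, with 1 cell above every low cell. Prtn3 reached 10 CPM in 1 intermediate cell, the one with the most Mpo of the 8, and Ctsg in none. The intermediate cell without Gata1 at 10 CPM was a cell with 250 CPM of Mpo, in which Gata1 was at 1.97 CPM and Car2 at 7.88 CPM while Tgfbr3 was at 112 CPM; its total of 507732 counts was the lowest of the 8.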

How the data were processed

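RNA of 48 single BFU-E cells was read as 1 group. Per the submitters' processing notes, the build was mm10 and the tools included TopHat2 2.0.12, Subread and featureCounts 1.4.6. The deposited counts are whole reads for 24062 genes. The authors' log2 table equals log2 of the count over a size factor (0.175 to 2.35), plus 1, within 1e-06, and served as an alternative.

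CPM used the column sum, and differences the mean of log2(CPM + 1), by set of cells, without a test. Named genes are Mpo, the 15 genes of largest difference in each direction with interquartile ranges apart, list members, and the 5 genes of highest and lowest correlation with Mpo inside the very high set; genes beyond that rule were chosen after their values were seen. The members and the 24 lists were chosen with earlier results of these data known, and motifs after promoters had been seen. Promoters are from RefSeq, with entries for 25 of 31 genes (Mpo and the 30 of largest difference). Positions are from GENCODE for mm10. No doublet caller was run; the labels' protocols describe optical inspection of chambers. Python 3.11.15 with pandas 2.3.3, scipy 1.17.1, numpy 2.4.6 and matplotlib 3.10.9, and edgeR 4.0.16 under R 4.3.3 for TMM factors, were used. The calculation was tested on simulated data. No column of the table was left unused. Some genes are not reported here.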

Additional observations from a re-analysis of the deposited data

How the results depend on the processing

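The number of genes past the limit depended on the pseudocount and on the summary of each set. With a pseudocount of 0.1, 787 genes were higher and 695 lower, and with 10 the counts were 92 and 35. The difference in medians gave 654 and 660, and the log2 ratio of summed counts 888 and 792. Under the other settings tried both counts stayed within 1.5 times of 345 and 244. These were TMM library sizes, totals without Mpo, the authors' log2 table, 3 changes of the gene filter, 3 of the Mpo limits, 2 of the C1qb limit, thinning of each cell to 246007 counts, and leaving out the 5 shallowest cells or the 2 cells with both Gata1 and Elane at 10 CPM. Leaving out the very high cells with Gata1 was added after seeing the data. None of the 30 genes of largest difference changed sign: of their 570 values, 553 moved by less than the spread between cells, 17 by more and 0 reversed. These genes were picked for large differences in the same cells, so their stable sign is a description and no independent check. By summed counts Gata1 differed by −2.61, Car2 by −3.61 and Ptprc by 2.08. In place of 10, 4 erythroid regulators were lower with a pseudocount of 10, and 6 with Mpo limits of 500 and 200 CPM or with the 2 cells of high C1qb kept.

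Without the gene filter the list medians were 2.44 for granule genes, 0.00 for mast cell and basophil, and 0.22 for monocyte and dendritic genes. With a pseudocount of 10, myeloid receptors had 1.84 and the actin cytoskeleton 0.74. By the difference in medians, myeloid receptors had 2.11 and monocyte and dendritic genes 0.00. By summed counts the medians were −3.58 for erythroid maturation, 6.49 for mast cell and basophil, 3.39 for monocyte and dendritic, −3.49 for endothelial and stromal and 0.60 for actin cytoskeleton genes. After thinning, myeloid receptors had 4.13, hepatoblast 1.47 and endothelial and stromal 2.05, and with a mean of 5 CPM required hepatoblast had 1.45. The cause was not tested. The other list medians moved by less than the spread between cells, but the sign of medians near 0 changed under 4 of 19 settings for the oxidase and antioxidant list, 3 for lymphoid, 3 for lysosome and 1 for S phase genes, as it did under 6 for endothelial and stromal genes.

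The number of cells with a count depends on depth and limit. In the very high set, thinning changed it from 18 to 14 for Ctsg, 15 to 5 for Gata1, 6 to 2 for Klf1 and 7 to 1 for Tgfbr3; in the low set, from 17 to 5 for Elane, 16 to 9 for Prtn3, 11 to 2 for Ctsg and 16 to 11 for Klf1. At 10 CPM in place of 1 count, very high cells numbered 10 for Elane, 13 for Ctsg, 3 for Gata1, 1 for Klf1 and 1 for Tgfbr3, and low cells 1 for Elane, 4 for Prtn3 and 0 for Ctsg. Thinned cells had medians of 5006 and 5000 genes in the very high and low sets. No paired analysis was possible because all cells belong to 1 group.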
